A study of Mus musculus with 15 samples.

Results

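The expression of 9 genes of the CREB pathway was followed through 15 RNA-seq libraries of mouse hippocampus. They are the transcription factor genes Creb1 and Crem, the coactivator genes Crtc1, Crtc2 and Crtc3, the salt-inducible kinase genes Sik1, Sik2 and Sik3, and 1700016P03Rik, the noncoding host transcript of miR-212 and miR-132. The genes were chosen by name with the FC vs CC and RT vs CC differences of these libraries (groups defined below) already known, so the fold changes and adjusted p-values given for them describe these libraries and are not independent tests. All 9 of the 9 genes were found among the 37310 in the count table, and all 9 were among the 18008 that had more than 10 reads in more than 5 libraries and were tested.

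The mice were male C57BL/6J, 2 months of age, wild type, housed singly and handled before use. The comparison is between 3 groups of 5 libraries each. Control mice (CC) were handled and never trained, and were dissected at a matched time of day. Fear-conditioned mice (FC) were given 1 foot shock (1.5 mA, 2 s) in a conditioning chamber and their hippocampi were taken 30 min afterwards. Retrieval mice (RT) had the same training, were returned to the chamber 24 h later for a 5 min test, and were dissected 30 min after that test. Both hippocampi of a mouse went into 1 library of polyA-selected RNA, and each sequencing lane carried 3 libraries, 1 of each group, with no record here of which library ran in which lane. Libraries carry the numbers 3, 5, 6, 7 and 8 in each group, and n counts libraries, because the article and the deposited description give different numbers of animals. All 7 hippocampal marker genes examined (among them Prox1, Wfs1 and Zbtb20) were present, the weakest of them at a mean of 993 normalized counts in CC.

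CREB is a transcription factor that binds the cAMP response element, and its phosphorylation in neurons is a classical step between synaptic activity and the transcription that long-term memory requires. The CRTC proteins are coactivators that enter the nucleus and bind CREB when they are dephosphorylated by calcineurin, and salt-inducible kinases phosphorylate them and hold them in the cytoplasm. Sik1 is itself a CREB target gene, which makes the kinase part of a negative feedback loop, and the miR-212/132 locus is another CREB target with roles in dendrite growth.

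The 4 mature miRNAs of this locus are printed from RefSeq (GRCm38.p6), because their seeds decide which messages are compared further on. The seed, bases 2 to 8 counted from the 5′ end, is in capitals.
mmu-miR-132-3p: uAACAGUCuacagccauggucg
mmu-miR-212-3p: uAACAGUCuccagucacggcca
mmu-miR-132-5p: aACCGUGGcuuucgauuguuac
mmu-miR-212-5p: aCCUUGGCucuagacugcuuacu
The 3p arms of miR-132 and miR-212 have the same seed, and the 5p arms have a seed each of their own. On mm9 the mature miR-132-3p lies at chr11:74987225-74987246 and the mature miR-212-3p at chr11:74986945-74986966, both on the plus strand. Both hairpins fall in the first intron of 1700016P03Rik, which runs from 74986062 to 74991135 on chromosome 11. A library of long polyA RNA does not measure the mature miRNAs, so the values below are for the host transcript and for read pairs that fell on the annotated hairpins.

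Counts are given after upper-quartile (UQ) normalization, which scales each library by its upper quartile of counts. In FC3 and RT3 many genes lay away from the other libraries of their group. In FC3, 26.7% of the 13746 genes with enough reads to compare were at least 1.5-fold below the median of the other 4 FC libraries and 24.8% at least 1.5-fold above it, and in RT3 these shares were 9.36% and 9.73%. For that reason expression changes come from 1 model of negative binomial counts, fitted in edgeR to the 15 libraries together, that holds the UQ factors and 5 factors of unwanted variation (RUVs). The threshold is an adjusted p (FDR) of 0.01 over all tested genes. Markers of choroid plexus, the epithelium that makes cerebrospinal fluid and borders the hippocampus, also differed between libraries. Their summed count ran from 1931 to 2630 over the CC libraries, from 3990 to 53182 over FC (highest in FC5 and FC8) and from 2565 to 14966 over RT. None of the 10 markers had a group mean of 0, and 9 were called higher in FC vs CC and 1 in RT vs CC. No member of the endothelial, microglial, astrocyte, oligodendrocyte or hippocampal marker lists was called in either comparison. The part of these shifts in the results below was not tested, and values of the 9 genes and the hairpins without FC3 and RT3, or without FC5 and FC8, are given with their results. FC vs CC and RT vs CC share the 5 CC libraries, so their results are set side by side and not compared as independent.

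Of the 9 genes 2, Sik1 and 1700016P03Rik, were called higher 30 min after fear conditioning (FC vs CC), and the same 2 were called higher 30 min after retrieval (RT vs CC). Their fold changes lay between 2.06 and 2.37. No gene of the 9 was called lower, and none was called between FC and RT. Over all tested genes 1.32% were called higher and 0.922% lower in FC vs CC, 0.866% and 0.144% in RT vs CC, and 0.122% were called in either direction in FC vs RT. In bulk tissue, more RNA per cell and more cells of a type cannot be told apart, and the same holds for less RNA and fewer cells. The median log2 fold change of the 9 genes was 0.01 in FC vs CC and -0.02 in RT vs CC, beside -0.01 and -0.0012 over all tested genes.

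**Figure D1:**
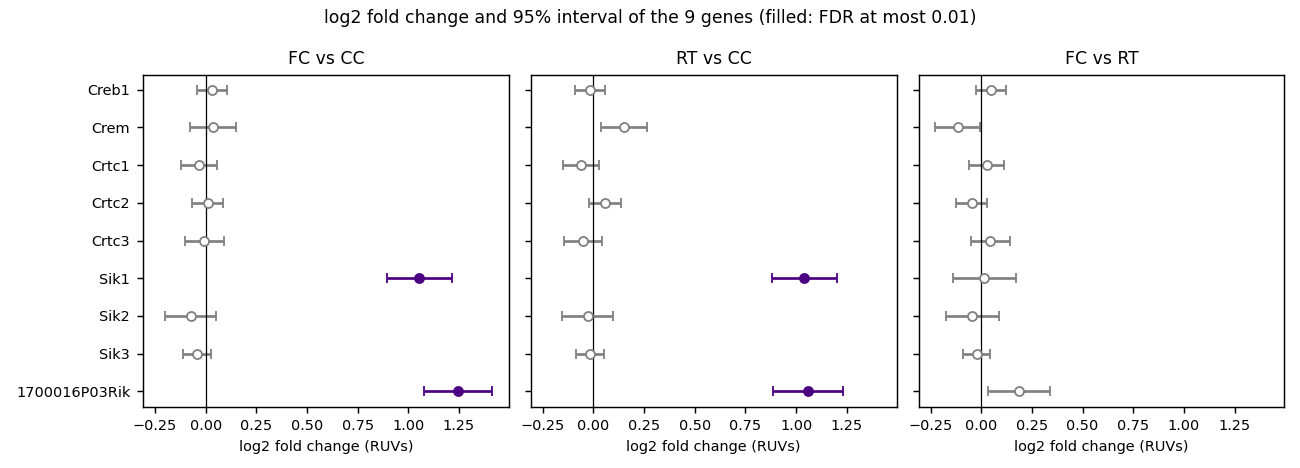
Log2 fold change from the RUVs model (x axis) for each of the 9 genes (y axis) in 3 comparisons, with 95% intervals. Filled points passed an FDR of 0.01: Sik1 and 1700016P03Rik stand at 1.05 and 1.25 in FC vs CC, and at 1.04 and 1.06 in RT vs CC, and the other 7 genes lie between -0.07 and 0.15 in these comparisons.

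Sik1 (ENSMUSG00000024042, chr17:31981193-31992737, minus strand, mm9) encodes the salt-inducible kinase that is transcribed in response to cAMP and activity. Its UQ counts in CC libraries 3, 5, 6, 7 and 8 were 517, 432, 448, 408 and 470. In FC they were 669, 1072, 817, 956 and 1015, and in RT 768, 1037, 959, 875 and 937. Every trained library lay above every CC library, the lowest FC value and the lowest RT value were those of the number 3 libraries, and FC and RT overlapped. A gap of this kind, with the ranges of 5 and 5 libraries apart and the trained group above, was seen in 0.561% of tested genes for FC vs CC and in 0.9% for RT vs CC. The mean was 455 ± 41.6 in CC, 906 ± 163 in FC and 915 ± 101 in RT (SD, n = 5 each). The log2 fold change was 1.05 (SE 0.08, edgeR FDR 7.78e-34) in FC vs CC and 1.04 (SE 0.08, edgeR FDR 4.73e-33) in RT vs CC. Between FC and RT the difference was 0.01 with a 95% interval of -0.14 to 0.17. With UQ factors alone, which called only 0.178% of genes higher in FC vs CC and 0.1% in RT vs CC, Sik1 was still called, at 0.99 (edgeR FDR 3.13e-07) and 1.01 (edgeR FDR 2.28e-07). Without FC3 and RT3 the log2 fold changes were 1.06 and 1.05. Without FC5 and FC8, the libraries with the most choroid plexus RNA, the FC vs CC value was 0.91 (edgeR FDR 4.58e-29).

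**Figure D2:**
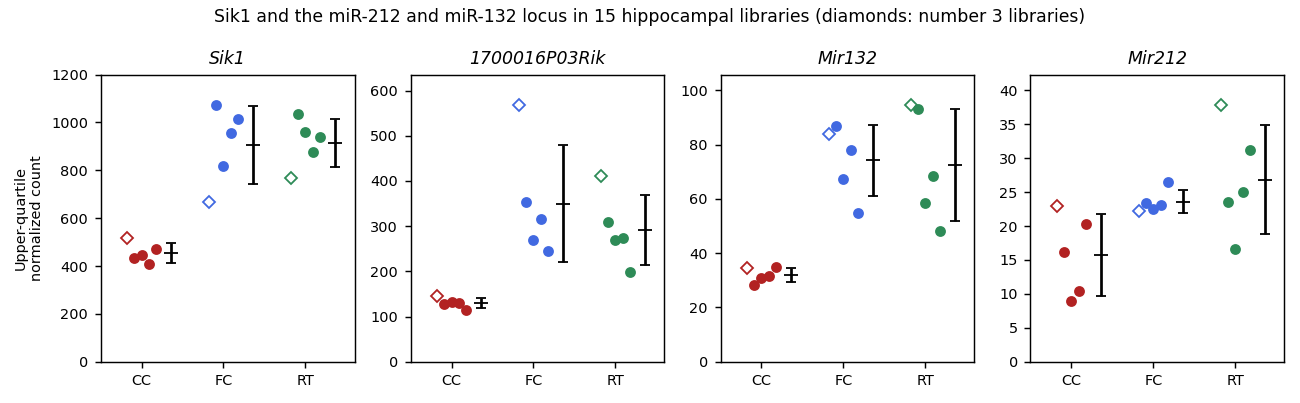
UQ counts (y axis, from 0) of Sik1, the host transcript 1700016P03Rik and the 2 hairpin genes in each library, by group, with the group mean and SD (bars, n = 5). Sik1, 1700016P03Rik and Mir132 are higher in every FC and RT library than in any CC library, whereas the groups overlap for Mir212; open diamonds are the number 3 libraries, where 1700016P03Rik reaches 567 and 410.

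Sik2 and Sik3, the other salt-inducible kinases, were not called in any comparison. Sik3 (ENSMUSG00000034135, chr9:45820903-46032277, plus strand, mm9) is the most abundant of the family and had 8924 to 9810 UQ counts in CC. FC3 had 6686 and the remaining 4 FC libraries 9061 to 9174, while RT3 had 7550 and the remaining RT libraries 8945 to 9564. Outside the number 3 libraries every FC and RT value lay within the CC range. The log2 fold change of Sik3 was -0.04 (95% interval -0.11 to 0.03) in FC vs CC and -0.02 (-0.09 to 0.05) in RT vs CC. Without FC3 and RT3 these were -0.02 and -0.0052, and without FC5 and FC8 the FC vs CC value was -0.05.

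Sik2 (ENSMUSG00000037112, chr9:50700917-50817178, minus strand, mm9) showed the widest spread of the 9 genes. Its UQ counts in CC libraries 3, 5, 6, 7 and 8 were 549, 491, 386, 558 and 483. In FC they were 45, 501, 598, 542 and 495, and in RT 125, 472, 564, 455 and 485. FC3 held 0.0873 of the median of the other FC libraries, a ratio lower than which only 100 of 13746 genes went, and RT3 held 0.263 of its group's median, with 52 genes lower. The raw count, before any scaling, was 44 in FC3. With UQ factors alone the SE of the FC vs CC log2 fold change was 0.41, and with RUVs factors it was 0.06, around a value of -0.07 (95% interval -0.20 to 0.05). In RT vs CC the value was -0.03 (-0.15 to 0.10). Without FC3 and RT3 the FC vs CC value had the opposite sign, 0.08, and was not called either (edgeR FDR 0.555), and the RT vs CC value was 0.02. Without FC5 and FC8 the FC vs CC value was -0.04. Of the exonic bases of Sik2, 16.2% also belong to Ppp2r1b on the other strand, for which the log2 fold changes were 0.05 and 0.04 and no call was made.

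The level of a message per kilobase of exon puts the 3 kinases on 1 scale. In CC the mean UQ count per kilobase was 1301 for Sik3, 138 for Sik2 and 101 for Sik1. Sik1 made up 6.55% ± 0.42 of the summed level of the 3 kinases in CC, 13.1% ± 1.19 in FC and 12.9% ± 0.78 in RT (SD, n = 5 each). The lowest share in a trained library was 11.1% and the highest in CC 6.95%. The summed level of the 3 kinases was 1470 to 1650 (CC), 1102 to 1666 (FC) and 1268 to 1690.4 (RT), with FC3 and RT3 the lowest libraries, and the groups overlapped. The share in FC3 (13.5%) and RT3 (13.4%) lay within the range of the other libraries of their groups.

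The CRTC coactivators, the substrates of these kinases, were not called in any comparison. Crtc1 (ENSMUSG00000003575, chr8:72906254-72963478, minus strand, mm9), the main neuronal form, had UQ counts of 16777 to 20896 (CC), 13057 to 18962 (FC) and 13744 to 18369 (RT). Crtc2 (ENSMUSG00000027936, chr3:90058085-90068047, plus strand) had 1816 to 1999, 1381 to 2064 and 1928 to 2026. Crtc3 (ENSMUSG00000030527, chr7:87731513-87833763, minus strand) had 1659 to 1889, 1350 to 1782 and 1420 to 1765. All 3 genes overlapped between groups, and the lowest FC value was that of FC3 for each of them. The log2 fold changes in FC vs CC were -0.03 for Crtc1 (95% interval -0.12 to 0.05), 0.01 for Crtc2 (-0.07 to 0.09) and -0.01 for Crtc3 (-0.10 to 0.09). In RT vs CC they were -0.06 (-0.15 to 0.03), 0.06 (-0.02 to 0.13) and -0.05 (-0.15 to 0.04). None of these 6 intervals, all from the RUVs model, reaches beyond 0.15 in size. The intervals are wider with UQ factors alone. There the FC vs CC values were -0.09 (SE 0.14) for Crtc1, -0.04 (SE 0.13) for Crtc2 and -0.06 (SE 0.13) for Crtc3. In the RUVs model these SEs were 0.05, 0.04 and 0.05. Without FC3 and RT3 the FC vs CC values were -0.0049 for Crtc1, 0.05 for Crtc2 and 0.03 for Crtc3, the RT vs CC values were -0.04, 0.04 and -0.03, and none was called. Without FC5 and FC8 the FC vs CC values were -0.03, -0.01 and -0.0031. Crtc1 gave 71.6% of the summed per-kilobase level of the 3 coactivators in CC, 70.9% in FC and 69.9% in RT.

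Creb1 and Crem, the transcription factors of the set, were not called either. Creb1 (ENSMUSG00000025958, chr1:64579378-64651121, plus strand, mm9) encodes CREB. Its UQ counts were 2018 to 2498 (CC), 1386 to 2482 (FC) and 1584 to 2453 (RT), with the number 3 library lowest in FC and in RT. Its log2 fold change was 0.03 (95% interval -0.05 to 0.11) in FC vs CC and -0.02 (-0.09 to 0.06) in RT vs CC. Leaving out FC3 and RT3 gave 0.04 and -0.0076, and leaving out FC5 and FC8 gave 0.01 in FC vs CC.

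Crem (ENSMUSG00000063889, chromosome 18) encodes the cAMP-responsive element modulator, whose inducible short form ICER represses CREB targets. Its UQ counts in CC libraries 3, 5, 6, 7 and 8 were 615, 610, 565, 565 and 510. In FC they were 696, 572, 571, 582 and 638, and in RT 780, 574, 610, 644 and 693. RT3 and FC3 had the highest values of their groups, opposite to Creb1, and all 3 groups overlapped. The log2 fold change was 0.03 (95% interval -0.08 to 0.15) in FC vs CC and 0.15 (0.04 to 0.26) in RT vs CC, where the unadjusted p from edgeR's likelihood ratio test was 0.00879 and the FDR 0.201. Counts per gene pool all Crem transcripts, so the ICER form was not resolved. Crem is also 1 of the study's negative control genes, from which the RUVs factors are computed, and the only one of the 9 among them. With Crem taken out of the controls its values were 0.04 and 0.15. Leaving out FC3 and RT3 gave 0.03 and 0.12 (edgeR FDR 0.838 and 0.352), and leaving out FC5 and FC8 gave 0.03 in FC vs CC.

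**Figure D3:**
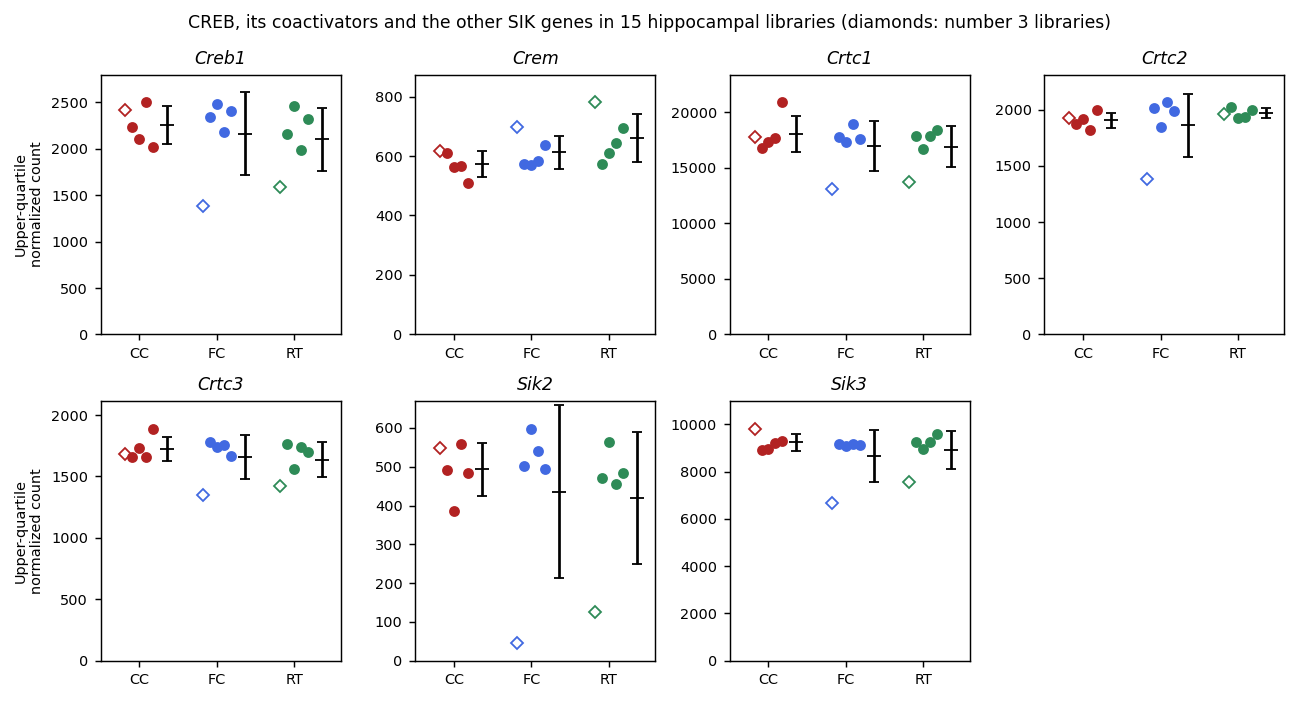
UQ counts (y axis, from 0) of the 7 genes that were not called, in each library, by group, with the group mean and SD (bars, n = 5). The number 3 libraries of FC and RT (open diamonds) lie at 45 and 125 for Sik2, FC3 is also below every CC library for Creb1, Crtc1, Crtc2, Crtc3 and Sik3, and Crem reaches 780 in RT3 against at most 615 in CC.

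1700016P03Rik (ENSMUSG00000085609, plus strand), annotated as a lincRNA of 3 exons, is the spliced part of the primary transcript from which miR-212 and miR-132 are cut. Its UQ counts in CC libraries 3, 5, 6, 7 and 8 were 146, 128, 131, 131 and 115. In FC they were 567, 353, 269, 316 and 244, and in RT 410, 308, 270, 274 and 198. Every trained library lay above every CC library, FC and RT overlapped, and the highest value of each trained group was in the number 3 library, where Sik1 had its lowest. The mean was 130.2 ± 11.1 in CC, 350 ± 129 in FC and 292 ± 77.2 in RT (SD, n = 5 each). The log2 fold change was 1.25 (SE 0.09, edgeR FDR 1.19e-43) in FC vs CC and 1.06 (SE 0.09, edgeR FDR 5.41e-30) in RT vs CC. Between FC and RT it was 0.19 (95% interval 0.04 to 0.34), which was not called (edgeR FDR 0.304). With UQ factors alone the values were 1.42 (edgeR FDR 3.69e-07) and 1.17 (edgeR FDR 0.000203). Without FC3 and RT3 they were 1.18 and 1.03, and without FC5 and FC8 the FC vs CC value was 1.16.

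The third exon of the host, 641 of its 863 exonic bases (74.28%), lies wholly within exons of Ovca2 on the other strand. The TruSeq RNA kit does not mark strand, and how reads in such an overlap were assigned is not given in the sources used here. Ovca2 was called higher by 0.35 (edgeR FDR 2.25e-06) in FC vs CC and by 0.32 (edgeR FDR 2.42e-05) in RT vs CC. The UQ counts of Ovca2 were 462 to 579 (CC), 574 to 1275 (FC) and 626 to 954 (RT). Reads of the 2 genes cannot be told apart there, and the level of the host per kilobase is uncertain for that reason. The part of Ovca2 reads in the counts and fold changes of the host was not tested.

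The annotated hairpins lie outside that overlap. Mir132 (chr11:74987167-74987267, plus strand, mm9) had 34, 28, 31, 31 and 35 UQ counts in CC libraries 3, 5, 6, 7 and 8. In FC it had 84, 87, 68, 78 and 55, and in RT 94, 93, 58, 68 and 48. The trained libraries were again all above the CC libraries. The log2 fold change was 1.18 (SE 0.14, edgeR FDR 1.32e-13) in FC vs CC and 1.10 (SE 0.15, edgeR FDR 3.18e-11) in RT vs CC. Mir212 (chr11:74986890-74986980, plus strand, mm9) had 23, 16, 9, 10 and 20 UQ counts in CC, 22, 23, 23, 23 and 26 in FC, and 38, 24, 17, 25 and 31 in RT. Its groups overlapped, and its log2 fold changes of 0.49 (95% interval 0.06 to 0.92, edgeR FDR 0.208) and 0.58 (0.16 to 1.00, edgeR FDR 0.171) were not called. Mir212 had 7 to 42 raw reads a library. Without FC3 and RT3 the values were 1.17 and 1.07 for Mir132 and 0.53 and 0.51 for Mir212, and without FC5 and FC8 the FC vs CC values were 1.11 and 0.52.

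Placed in order of their mean level per kilobase in CC, the 9 genes ran from Crtc1 (1617) and Sik3 (1301) through Crtc2 (465), Creb1 (265), Crtc3 (175), 1700016P03Rik (151), Sik2 (138) and Sik1 (101) to Crem (96.5), with SDs of 7.20 (Crem) to 145 (Crtc1). The first 4 were each apart from the next in every library, and from Crtc3 downwards each neighbour overlapped the next. In FC and RT, 1700016P03Rik was 4th and Sik1 6th, with levels of 405 and 201 in FC and 339 and 203 in RT, and each overlapped its neighbours. The place of 1700016P03Rik is uncertain in all groups because of the exon it shares with Ovca2. Among CC libraries the coefficient of variation ran from 3.59% for Crtc2 to 14.0% for Sik2.

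The genes around these 9 were read from lists that were also written with earlier results of these data known. In the CREB/ATF family 1 of 18 genes, Atf3, was called higher in FC vs CC and in RT vs CC. Atf3, an activity- and stress-induced repressor, had UQ counts of 45 to 57 (CC), 48 to 134 (FC) and 74 to 94 (RT), and log2 fold changes of 0.70 (SE 0.13, edgeR FDR 9.24e-06) and 0.72 (SE 0.13, edgeR FDR 9.25e-06). Its FC values overlapped CC, and without FC5 the call in FC vs CC was lost (log2 fold change 0.52, edgeR FDR 0.0185). The quasi-likelihood test and DESeq2 called Atf3 in neither comparison. Of the CREB coactivators 0 of 9 were called by edgeR in either comparison, and 0 had an unadjusted p under 0.05, with Crebbp, the acetyltransferase CBP, at -0.07 and 0.01. The median log2 fold change of the CREB/ATF family was 0.02 in FC vs CC and 0.01 in RT vs CC, and that of the coactivators was -0.01 in both.

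Of 20 genes of the salt-inducible and other kinases of the LKB1-AMPK family and their partner proteins, Sik1 was the only one called. Brsk1, a kinase of neuronal polarity, was at -0.12 (edgeR FDR 0.0173) in FC vs CC and 0.0025 in RT vs CC, and Nuak1 was at -0.14 (edgeR FDR 0.0211) and -0.09. Their FDRs in FC vs CC were just above the threshold, and each was called lower when certain single libraries were left out (Nuak1 without CC5 or CC8, Brsk1 without RT3). Cab39l, a scaffold of the LKB1 complex, was called higher, by 0.24, only when FC6 was left out. The median of the list was -0.04 in FC vs CC and -0.02 in RT vs CC.

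Apart from the salt-inducible kinases above, the lists around cAMP and the CREB and CRTC phosphorylations showed no called gene in either comparison. This holds for 10 genes of protein kinase A, 16 cAMP phosphodiesterases, 11 CREB kinases that depend on calcium or ERK and 12 phosphatases or calcineurin regulators, and the same count was 0 for 13 genes of miRNA processing. Of these 62 genes 10 had an unadjusted p under 0.05 from edgeR in FC vs CC (16.1%) and 7 in RT vs CC (11.3%), beside 16.5% and 11.05% of all tested genes, and DESeq2 and the quasi-likelihood test called 0 in both. Medians of these 5 lists lay between -0.06 and 0.0045. The genes with the smallest p in each were Prkar2b (-0.13 and -0.13) and Akap5 (-0.06 and -0.09) for protein kinase A, Pde3b (-0.15 and -0.10) and Pde10a (-0.12 and -0.08) for the phosphodiesterases, and Camkk2 (-0.10 and -0.09) and Rps6ka3 (-0.02 and -0.11) for the kinases. For the phosphatases they were Rcan2 (-0.09 and -0.08) and Ppp1cc (0.07 and -0.02), and for miRNA processing Tarbp2 (-0.06 and -0.09) and Dgcr8 (-0.08 and -0.02). The first value of each pair is FC vs CC and the second RT vs CC. Without CC8, Prkar2b was called lower in both comparisons, by -0.18 and -0.19, and Akap5 in RT vs CC, by -0.15.

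**Figure D4:**
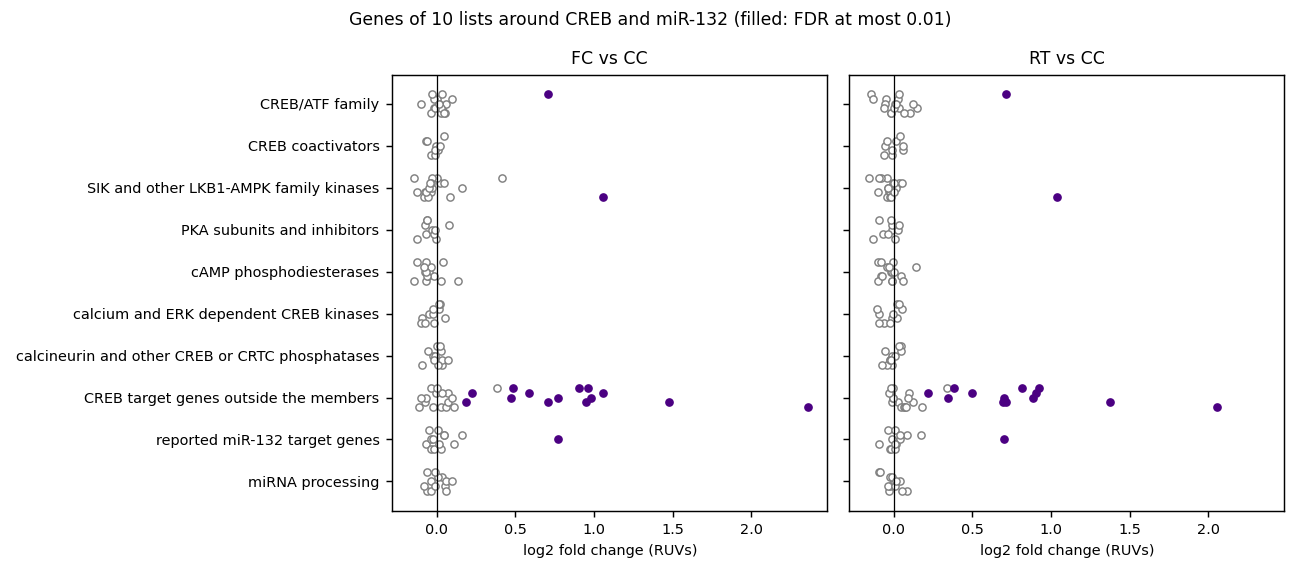
Log2 fold change from the RUVs model (x axis) of each gene of 10 lists (y axis) in FC vs CC and RT vs CC, 1 point a gene. Filled points passed an FDR of 0.01: in the CREB target list 14 of 30 and 13 of 30, and in the other lists Atf3, Sik1 and Btg2 alone. Atf3 and Btg2 also belong to the CREB target list and are drawn there too.

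Of 30 known CREB target genes outside the set 14 were called higher in FC vs CC and 13 in RT vs CC, and none was called lower. Over all tested genes 1.32% and 0.866% were called higher. Atf3 and Btg2 are among the list's called genes in both comparisons. The median log2 fold change of the list was 0.15 in both, against -0.01 and -0.0012 over all genes. The list was written with earlier results of these data known, so its counts and medians are a description and not a test. Fos, an AP-1 transcription factor, had UQ counts of 219 to 357 (CC), 1148 to 1698 (FC) and 977 to 1257 (RT), and rose by 2.36 and 2.05 on the log2 scale (SE 0.12 each, edgeR FDR 6.19e-79 and 4.92e-60). Arc, which encodes a protein of the postsynaptic density, rose by 1.48 and 1.37. Cyr61, a secreted matrix protein gene, rose by 1.06 and 0.90, and the antiproliferative gene Btg2 by 0.77 and 0.70. The values of Sik1, 1.05 and 1.04, lay beside those of Cyr61 and under those of Arc and Fos, differences between genes that were not tested. Nr4a3, an orphan nuclear receptor gene, was called in FC vs CC only (0.19, edgeR FDR 0.00679), the FC vs RT difference of 0.16 was not called (edgeR FDR 0.0905), and the call in FC vs CC was lost in several other analyses. With UQ factors alone 8 of the 30 were called in FC vs CC, with DESeq2 12 and with the quasi-likelihood test 11. Leaving out single libraries gave 11 to 15.

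Genes reported as targets of miR-132 showed 1 call. Btg2 was higher in both comparisons, as above, and the other 13 of 14 were not called, with a median over the list of 0.01 in each comparison. The perfect match to the shared 3p seed is GACTGTT, or GACTGTTA with the A opposite base 1 of the miRNA. Of the 15183 tested genes with a 3′ UTR in the annotation 11.7% hold GACTGTT in their longest 3′ UTR and 2.47% hold GACTGTTA, and in the target list these counts were 12 and 5 of 14. Sites of 3 listed targets are printed as they stand in the message, 30 bases of the 3′ UTR each, with the match in capitals (mm9 positions).
Foxo3, chr10:41905968-41905997, minus strand: gccgcttccctaacccagcagaGACTGTTA
Sox5, chr6:143781681-143781710, minus strand: cacattaactctctcatacactGACTGTTA
Zeb2, chr2:44842766-44842795, minus strand: ttttttagctaacctcaagaggGACTGTTA
Foxo3, a forkhead transcription factor, was at 0.0086 and -0.04 in FC vs CC and RT vs CC, Sox5 at 0.01 and 0.01 and Zeb2 at -0.02 and 0.01. None of these 3 was called, and each SE was between 0.04 and 0.05. Arhgap32, the synaptic GTPase activator p250GAP, stood lowest at -0.07 and -0.10 (edgeR FDR 0.143 and 0.0277), and Sirt1 highest among those not called at 0.16 and 0.17 (edgeR FDR 0.0829 and 0.0969). Arhgap32 was called lower in both comparisons without CC8 (-0.12 and -0.15) and in RT vs CC without FC3 (-0.11). Over all 375 tested genes with GACTGTTA the median log2 fold change was -0.0020 in FC vs CC and -0.01 in RT vs CC. Of them 1.33% and 0.8% were called, against 2.23% and 1.04% of all tested genes with a 3′ UTR. The called genes with GACTGTTA were 5 higher and 0 lower in FC vs CC, and 2 higher and 1 lower in RT vs CC. Over all tested genes with a 3′ UTR these counts were 223 and 116, and 140 and 18. Such a match is a run of letters and was not tested as a site.

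Genes whose pattern over the 15 libraries was most like Sik1 and the host were sought among 13737 tested genes with a mean of at least 100 counts, by Pearson correlation of log2(UQ count + 1). For Sik1 the closest were Dusp1 (r = 0.96), Arc (0.95), Tob2 (0.95), Fos (0.95) and Btg2 (0.94). For 1700016P03Rik they were Arid5a (0.97), Junb (0.95), Ier2 (0.95), Arl4d (0.95) and Nr4a1 (0.94). All 15 libraries enter these values, including the shift between CC and the trained groups. The counts were scaled by UQ factors alone, so the deviations of FC3 and RT3 enter too, and these differ between genes. Relative to the median of the rest of their group, Sik1 stood at 0.68 in FC3 and 0.81 in RT3. The host stood at 1.94 and 1.51. Over the 13 libraries without FC3 and RT3 the values lay between 0.92 and 0.99. The lists for Sik1 and for the host have no gene in common.

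Promoter windows of RefSeq (GRCm38.p6, 250 bases before to 50 after the start) were at hand for Creb1, Crtc1, Crtc3, Sik2 and Sik3, 5 of the 9. They were searched on both strands for the full cAMP response element TGACGTCA and for its half-site TGACG, which overlaps the full element. None of the 5 windows holds the full element, which 1.79% of all 32851 windows do. The half-site, present in 20.8% of all windows, occurs 3 times in Sik3 and 2 times in Sik2 and is absent from the windows of Creb1, Crtc1 and Crtc3. A stretch of each kinase promoter is printed in the direction of the gene with its half-sites on either strand in capitals (CGTCA on the other). Whether a half-site bears on a call was not tested.
Sik3, chr9:46012692-46012721, plus strand: cgcgtccgcacgTGACGcgcggttgccatg
Sik2, chr9:51009057-51009086, minus strand: gccccggcccccTGACGtcggctcaCGTCA
The half-site printed for Sik3 begins at -116 and those for Sik2 at -1 and 12, counted from the first base at the start. Crem, Crtc2, Sik1 and 1700016P03Rik were not examined.

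The values of Sik1 and 1700016P03Rik were recomputed in 28 other analyses, with other tests, filters, scalings and factors or without single libraries. Both were called higher in all 28, in FC vs CC as in RT vs CC. Sik1 lay between 0.91 and 1.13 in FC vs CC and between 0.98 and 1.09 in RT vs CC, and 1700016P03Rik between 1.16 and 1.42 and between 1.01 and 1.17. Mir132 was also called in all 28, at 1.08 to 1.27 and 0.99 to 1.20, and Mir212 in none. The other 7 genes were not called in any of them. Sik2 covered the widest range, -0.54 to 0.08 in FC vs CC.

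**Figure D5:**
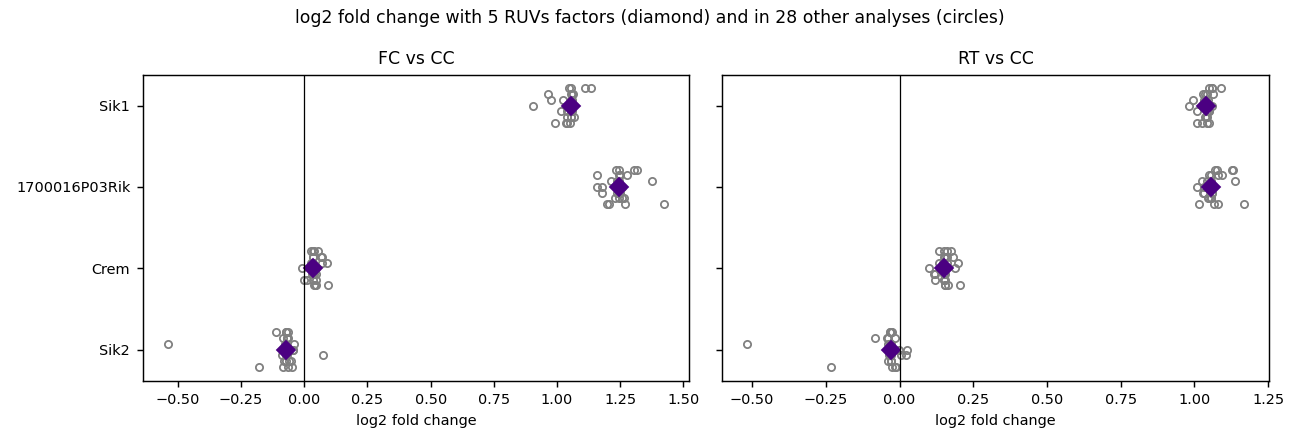
Log2 fold change (x axis) of Sik1, 1700016P03Rik, Crem and Sik2 in the RUVs model (diamonds) and in 28 other analyses (circles), for FC vs CC and RT vs CC. Sik1 and 1700016P03Rik stay at 0.91 or above throughout, Crem lies between -0.01 and 0.20, and Sik2 runs from -0.54 to 0.08.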

How the data were processed

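RNA-seq of hippocampus from CC, FC and RT mice (5 libraries each) was used. The authors aligned reads with GSNAP to mm9, kept pairs that mapped uniquely and concordantly, and counted them per gene of Ensembl 65 with HTSeq 0.6.1 (overlap mode and strand setting not given in the sources used here). The deposited values are raw counts of 35731428 to 62555543 reads per library, and those depths set the counting error. Within a group no 2 libraries agreed within sampling noise (chi-square per degree of freedom 6.28 to 440). The members and lists were chosen with earlier results of these data known. Named genes are the 9 members, the 2 hairpin genes, up to 4 called genes of each list with the smallest p (2 where none was called) and the 5 genes most like each called member. Genes that overlap a member, miR-132 targets other than Btg2, Nr4a3 and Cab39l were named after their values were seen. Genes past the filter (more than 10 reads in over 5 libraries) were tested in R 4.3.3 with edgeR 4.0.16, by a likelihood ratio test with group, 5 RUVs factors (with the study's negative control genes) and UQ factors, as in the study's code. Each SE is the size of the log2 fold change over the root of its likelihood ratio statistic. RUVs was written anew and tested on simulated data. Alternatives were the quasi-likelihood test, DESeq2 1.42.0, TMM, other filters and factors, the number as a block and leaving out libraries. Same-numbered libraries of FC and RT deviated together (correlations 0.254 to 0.870 over 18008 genes, 5 of 5 over 0.1). Pairs of FC and RT with different numbers had a median of 0.140 and reached 0.512. A value over 0.1 therefore does not by itself show pairing, and taking the numbers to pair FC with RT is an assumption. For CC, 1 of 5 same-numbered pairs with FC and 0 of 5 with RT were over 0.1. Positions are on mm9 (Ensembl 65 annotation), except those of promoter windows, which are on GRCm38.p6.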

Additional observations from a re-analysis of the deposited data

Results flagged for a closer look

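Of 33 sets of 5 UQ counts (11 genes in 3 groups), 8 had a library at one end that stood farther from the rest than Dixon's limit for 5 values (0.71 of the range), where chance gives about 1 in 20. Of these, 6 were number 3 libraries, each far below the other 4 of its group. Creb1 had 1386 in FC3 against 2182 to 2482, Crtc1 13057 in FC3 against 17336 to 18962, Crtc3 1350 in FC3 against 1668 to 1782, and Sik3 6686 in FC3 against 9061 to 9174. Sik2 had 45 in FC3 against 495 to 598, and 125 in RT3 against 455 to 564. The other 2 were Crtc1 in CC8, at 20896 against 16777 to 17752, and Mir212 in FC8, at 26 against 22 to 23, a gap of few reads. Neither Sik1, 1700016P03Rik nor Mir132 was among them.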

How the results depend on the processing

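The 9 genes had 756 values under the 28 alternatives. Of these, 723 kept their call and sign where called, or stayed within 1 SE where not called. A further 33, all not called, moved by more, and none crossed the threshold. Over the 9 genes and the hairpin genes together, 47 values that were not called changed sign. Counts over all genes depended far more on the model, and the cause was not tested. FC vs CC gave 403 calls, against 34 with UQ factors alone, 98 with the quasi-likelihood test, 164 with DESeq2, 176 with 3 factors, 219 without FC5 and FC8, and 249 (without FC5) to 653 (without CC8) when single libraries were left out. RT vs CC gave 182, against 19, 66 and 85 with the first 3 of these and 145 (without RT5) to 276 (without CC8) without single libraries. FC vs RT gave 22, against 0 with UQ factors (122 at an unadjusted p under 0.05), 0 with the quasi-likelihood test (1811), 4 with DESeq2, 1 with 3 factors, 39 with all genes as controls, 62 without FC3 and RT3, 50 without FC5 and FC8, and 11 (without FC5) to 92 (without RT8) without single libraries. The replicate number was also used as a block over all 15 libraries, which ties same-numbered libraries of CC, FC and RT together. With the block and UQ factors the counts were 45, 27 and 0 (169 at an unadjusted p under 0.05). With the block and RUVs FC vs RT gave 82. The block changed no call of the 9 genes. In FC vs CC the CREB/ATF list had 0 calls with UQ factors, the quasi-likelihood test, DESeq2, the block or without FC5 and FC8, and 0 to 1 without single libraries. CREB targets numbered 8 with UQ factors and 8 with the block, and in RT vs CC (13) 8 and 8, and 9 with DESeq2 or the quasi-likelihood test. Protein kinase A had 1 call without FC3 and RT3 (Prkar1b, lower), and 0 to 1 without single libraries. The miR-132 targets had 2 without FC3 and RT3 or with the block and RUVs (Sirt1 added, higher), and 1 to 2 without single libraries; the kinase list had 1 to 2. RUVs without Crem among the controls was chosen after seeing the data. Exonic lengths had no second source here, so that alternative was not run. Mir212 had 7 to 42 reads a library, and whether depth bears on its lack of a call was not tested.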
